A study of Homo sapiens with 12 samples.

Results

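AHR, AHRR, CYP1A1, CYP1B1 and TIPARP are the aryl hydrocarbon receptor, its repressor and 3 genes that the receptor is known to induce. All 5 symbols were found among the 23106 gene symbols counted in each library, and all 5 passed the filter on low counts. The genes were chosen by name with earlier results of these libraries in view, and AHR is on the list of genes lower with HIF2A siRNA that the study drew from these same libraries, so the values that chose it are their counts. The levels of these 5 genes and their differences between groups are therefore given as a description, with no p-value.

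AHR is a transcription factor of the bHLH-PAS family, which rests in the cytosol with HSP90 and the co-chaperone p23 (PTGES3) until it binds a ligand such as dioxin, a polycyclic aromatic hydrocarbon or a product of tryptophan. In the nucleus it pairs with ARNT and binds DNA at a GCGTG core. HIF-1α and HIF-2α, which VHL marks for destruction when oxygen is present, pair with the same partner ARNT and bind a core of ACGTG or GCGTG. AHRR resembles AHR, also pairs with ARNT and represses AHR target genes, and it is itself induced by AHR. CYP1A1 and CYP1B1 are cytochrome P450 enzymes that oxidize hydrocarbons and estrogens. TIPARP (PARP7) is a mono-ADP-ribosyltransferase that AHR induces and that limits AHR signaling.

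The counts came from RCC4 cells, a long-established cell line from a human clear cell kidney cancer in which VHL does not function. Cells were harvested 48 h after transfection with pools of siRNA, and each dish held 2 nM of siRNA in total. The control dishes had 2 nM control siRNA, the HIF1A siRNA dishes 1 nM HIF1A siRNA and 1 nM control siRNA, and the HIF2A siRNA dishes 1 nM HIF2A siRNA (against EPAS1) and 1 nM control siRNA. The double knockdown dishes had 1 nM of each HIF siRNA and no control siRNA, so that the joint knockdown and the absence of control siRNA cannot be told apart. Likewise, each single knockdown cannot be told apart from the lower dose of control siRNA, 1 nM against 2 nM. Each of the 4 groups had 3 libraries, paired across groups by replicate number (12 libraries in all). The line is 1 VHL-deficient tumor line, no AHR ligand is named in the labels, and the p-values given for other genes measure only the spread between these replicates.

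Total counts per library lay between 13263168 and 20451433. HIF1A RNA was between 15 and 32.2 CPM (counts relative to the library's total, scaled by TMM factors) in the 6 libraries with HIF1A siRNA and between 58.2 and 136 CPM in the other 6. EPAS1 RNA was between 7.01 and 11.9 CPM in the 6 libraries with HIF2A siRNA and between 101 and 171 CPM in the other 6. The kidney epithelial or clear cell carcinoma markers PAX8 (197 to 315 CPM), KRT8 (366 to 570 CPM) and VIM (2930 to 5430 CPM) were present throughout. CDH1 had at most 9 counts in any library. Of the proximal tubule markers, LRP2 had at most 4 counts and CUBN 10 to 29 counts. PTPRC, CD3E and PECAM1, markers of leukocytes and endothelium, had 0 counts in every library. The endothelial markers CDH5 and VWF had at most 6 and 8 counts. CD68 was present at 32.6 to 65.1 CPM, and the pericyte or fibroblast markers COL1A1 and ACTA2 at 16.6 to 71.1 and 7.26 to 14.7 CPM. The part of these markers in the results was not tested.

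The DNA just upstream of the start sites is shown because AHR and HIF share ARNT and nearly the same core, and such cores can be seen next to these genes. The RefSeq promoter table (GRCh38.p14) gave sequence for 4 of the 5 genes, and CYP1B1 was not matched. For each gene the 250 bases before its most upstream start in the table are printed 5′ to 3′ on the gene's strand: AHR at chr7:17298402-17298651 (+), AHRR at chr5:321464-321713 (+), CYP1A1 at chr15:74725529-74725778 (-) and TIPARP at chr3:156674340-156674589 (+). Capitals mark GCGTG or ACGTG and their reverse complements.
AHR: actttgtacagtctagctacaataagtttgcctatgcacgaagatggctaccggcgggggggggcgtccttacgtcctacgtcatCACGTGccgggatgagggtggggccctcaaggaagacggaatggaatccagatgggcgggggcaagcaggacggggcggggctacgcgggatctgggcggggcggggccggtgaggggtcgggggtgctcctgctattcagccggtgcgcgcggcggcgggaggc
AHRR: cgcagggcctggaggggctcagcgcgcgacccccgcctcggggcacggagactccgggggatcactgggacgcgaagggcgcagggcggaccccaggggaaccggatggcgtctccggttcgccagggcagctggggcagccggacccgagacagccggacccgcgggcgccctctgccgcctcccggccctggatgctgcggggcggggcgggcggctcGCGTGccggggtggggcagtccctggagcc
CYP1A1: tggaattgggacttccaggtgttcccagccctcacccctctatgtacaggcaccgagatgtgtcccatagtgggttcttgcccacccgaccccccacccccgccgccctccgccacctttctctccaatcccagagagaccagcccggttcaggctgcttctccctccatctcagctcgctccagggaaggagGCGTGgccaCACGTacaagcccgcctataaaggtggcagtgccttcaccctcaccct
TIPARP: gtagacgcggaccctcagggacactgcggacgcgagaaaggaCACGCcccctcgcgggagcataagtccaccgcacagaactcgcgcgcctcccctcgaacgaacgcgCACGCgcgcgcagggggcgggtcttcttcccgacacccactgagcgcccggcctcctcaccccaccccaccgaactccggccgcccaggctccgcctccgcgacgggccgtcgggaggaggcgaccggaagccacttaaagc
The AHR window held ACGTG on each strand, overlapping in 1 CACGTG palindrome that began 165 bases upstream of the start, and no GCGTG. The palindrome is also the E-box read by other bHLH factors. The AHRR window held GCGTG 30 bases upstream, where it was also part of TNGCGTG, the longer form of the AHR core. The CYP1A1 window held GCGTG 57 bases upstream and ACGTG on the other strand 48 bases upstream. The TIPARP window held GCGTG on the other strand at 208 and 142 bases upstream. Windows of later starts were searched too and are not printed. Those of TIPARP at chr3:156674676-156674925 and chr3:156676414-156676663 held neither GCGTG nor ACGTG. That of AHRR at chr5:322360-322609 held 2 GCGTG and no TNGCGTG. Such letters are common: among 35116 windows of 250 bases, searched on both strands, 32.2% held GCGTG, 18.5% held ACGTG and 4.52% held TNGCGTG. A match describes the letters and is not a measured binding site.

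Compared per kilobase of the canonical transcript, the genes differed widely in level in control siRNA cells. CYP1B1 was highest, at 47.7 ± 10.9 CPM per kb (SD, n = 3). TIPARP at 12.9 ± 3.68 and AHR at 10.3 ± 2.13 CPM per kb (SD, n = 3) came next, and their libraries overlapped. CYP1A1 at 0.548 ± 0.381 and AHRR at 0.219 ± 0.0616 CPM per kb (SD, n = 3) were lowest and did not overlap. In the double knockdown the order of the lowest pair was exchanged: AHRR lay between 0.689 and 1.06 CPM per kb and CYP1A1 between 0.112 and 0.68 CPM per kb. RCC4 cells thus carried far more RNA of CYP1B1 than of CYP1A1 in all 4 groups.

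**Figure D1:**
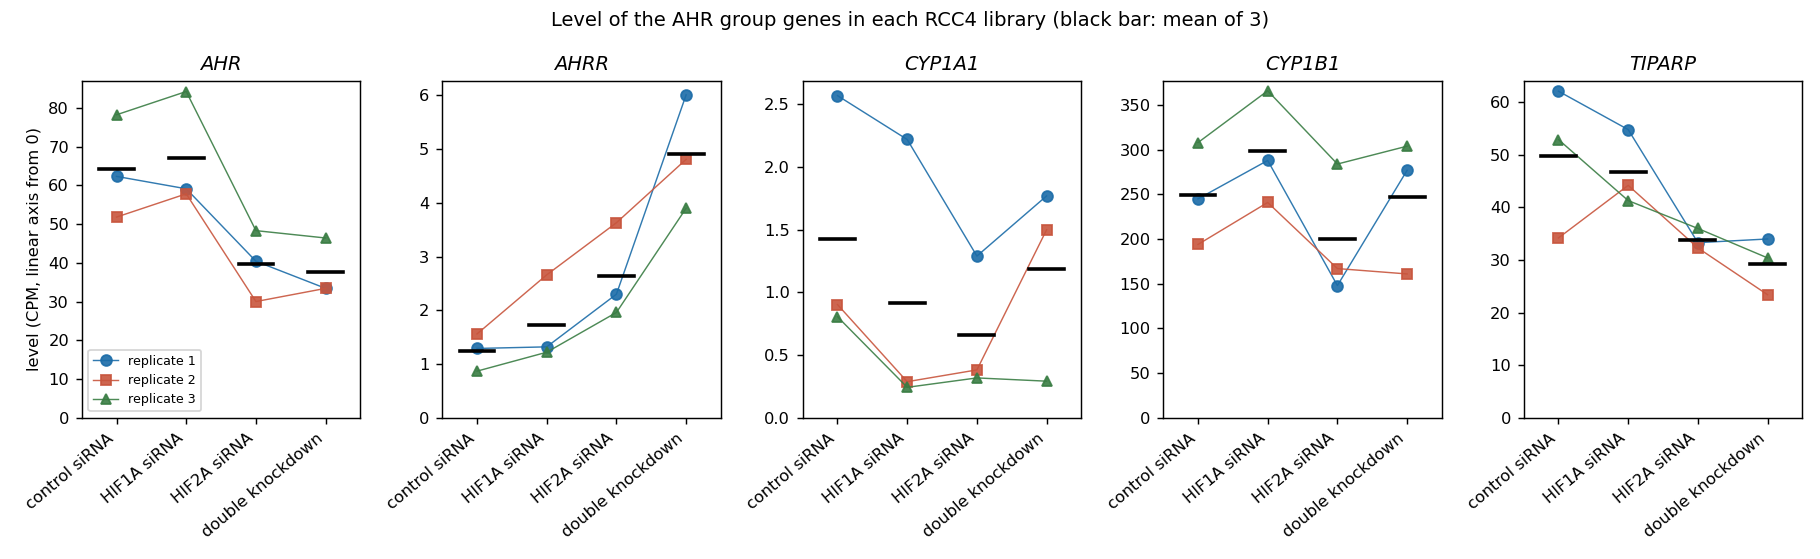
Level of AHR, AHRR, CYP1A1, CYP1B1 and TIPARP in each of the 12 libraries (y axis, CPM on a linear axis from 0 that differs between panels) by siRNA group (x axis), with lines joining libraries of the same replicate number and black bars at the mean of 3. AHR lies between 30 and 48.3 CPM in the 6 libraries with HIF2A siRNA and between 51.8 and 84.2 CPM in the other 6, AHRR is highest in the double knockdown, and CYP1A1 is highest in replicate 1 of every group.

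AHR RNA was lower wherever HIF2A siRNA was present. With control siRNA, AHR was at 62.3, 51.8 and 78.2 CPM in replicates 1, 2 and 3 (64.1 ± 13.3, SD, n = 3). With HIF1A siRNA it was at 59.1, 57.8 and 84.2 CPM (67 ± 14.9), with HIF2A siRNA at 40.4, 30 and 48.3 CPM (39.5 ± 9.19), and with both at 33.4, 33.4 and 46.4 CPM (37.7 ± 7.51). The groups with and without HIF2A siRNA did not overlap, and replicate 3 was the highest of its group in all 4 groups. In bulk RNA, fewer cells that express a gene and less of its RNA per cell cannot be told apart.

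The fitted difference in AHR between HIF2A and control siRNA was -0.69 ± 0.12 (log2 fold change with standard error), a level of 61.9% of control, and the 3 pairs lay between 58.2 and 65.1%. The difference between the double knockdown and control siRNA was -0.76 ± 0.11, with pairs from 54 to 64.8%, and that between the double knockdown and HIF1A siRNA was -0.83 ± 0.11, with pairs from 55.4 to 58.1%. These comparisons place AHR lower in 3 of 3 pairs each time. By contrast HIF1A siRNA gave a difference of 0.07 ± 0.12 from control, with pairs on both sides, and adding HIF1A siRNA to HIF2A siRNA gave -0.06 ± 0.11. The departure of the double knockdown from the sum of both single effects, the interaction, was -0.13 ± 0.16 for AHR. Over 18 alternative analyses the difference between HIF2A and control siRNA stayed between -0.76 and -0.63.

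AHRR was the 1 gene of the 5 with a higher mean under HIF2A than under control siRNA. It had few counts in control siRNA cells, 21, 31 and 14 in replicates 1, 2 and 3, or 1.29, 1.56 and 0.868 CPM (1.24 ± 0.346, SD, n = 3). It was at 1.32, 2.66 and 1.22 CPM with HIF1A siRNA (1.73 ± 0.805), at 2.3, 3.63 and 1.96 CPM with HIF2A siRNA (2.63 ± 0.879) and at 6.01, 4.81 and 3.9 CPM in the double knockdown (4.91 ± 1.06). The group means stepped up from control through HIF1A and HIF2A siRNA to the double knockdown, and the double knockdown overlapped no other group. HIF1A siRNA overlapped both control and HIF2A siRNA.

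The fitted difference in AHRR between the double knockdown and control siRNA was 2.03 ± 0.35 on the log2 scale, 408% of control. It was 1.58 ± 0.34 against HIF1A siRNA and 0.95 ± 0.33 against HIF2A siRNA. HIF2A siRNA alone differed from control by 1.08 ± 0.40, and HIF1A siRNA alone by 0.44 ± 0.41. AHRR was higher in 3 of 3 pairs in each of these 5 comparisons, which share libraries. The interaction was 0.50 ± 0.49, about the size of its standard error. The exact 95% Poisson interval of a single library, which covers counting error only, ran from 7.65 to 23.5 counts for the 14 counts of control replicate 3 and from 98.6 to 142 counts for the 119 counts of double knockdown replicate 1.

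Set against the receptor, the repressor differed between control siRNA and the double knockdown by more than either gene alone. With control siRNA there were 2.07, 3 and 1.11 AHRR counts per 100 AHR counts in replicates 1, 2 and 3 (2.06 ± 0.945, SD, n = 3). With HIF1A siRNA there were 2.24, 4.6 and 1.44 (2.76 ± 1.64), with HIF2A siRNA 5.7, 12.1 and 4.06 (7.29 ± 4.25), and in the double knockdown 18, 14.4 and 8.39 (13.6 ± 4.86). Within each replicate number the double knockdown had the highest ratio and control siRNA the lowest. Between HIF2A siRNA and the double knockdown the libraries overlapped, since HIF2A siRNA replicate 2 lay above double knockdown replicate 3. The ratio compares counts of transcripts of unequal length and is not a ratio of molecules.

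**Figure D2:**
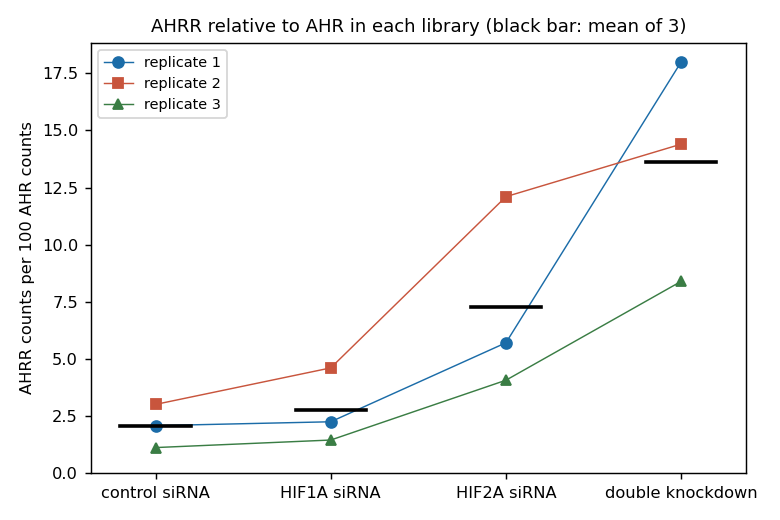
AHRR counts per 100 AHR counts in each library (y axis, linear from 0) by siRNA group (x axis), with lines joining libraries of the same replicate number and black bars at the mean of 3. The ratio is between 1.11 and 3 with control siRNA and between 8.39 and 18 in the double knockdown.

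CYP1A1, the classical AHR target and the most used readout of AHR activity, was near the limit of detection and varied with the replicate number. Its counts in replicates 1, 2 and 3 were 42, 18 and 13 with control siRNA, 42, 4 and 5 under HIF1A siRNA, 24, 6 and 6 under HIF2A siRNA and 35, 20 and 6 in the double knockdown. As levels these were 1.43 ± 0.994, 0.918 ± 1.13, 0.662 ± 0.541 and 1.19 ± 0.787 CPM (SD, n = 3). Replicate 1 was highest in all 4 groups, and every pair of groups overlapped.

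Within pairs, CYP1A1 was lower with HIF2A than with control siRNA in 3 of 3, at 58.1 to 62.8% after adding 0.5 CPM, with a fitted log2 fold change of -1.19 ± 0.56. HIF1A siRNA gave -0.97 ± 0.55, also lower in 3 of 3 pairs, and the double knockdown gave -0.29 ± 0.58, with pairs from 60.7 to 143%. The interaction was 1.80 ± 0.86, the widest standard error of the 5 genes. The 4 counts of HIF1A siRNA replicate 2 allow 1.09 to 10.2 counts by the exact 95% Poisson interval, which covers counting error only. CYP1A2, the neighbouring gene of the same AHR battery, was at 0 CPM in 10 of 12 libraries.

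CYP1B1 was the most abundant of the 5 genes per kilobase, and no siRNA group stood apart from the others. It was at 245, 194 and 308 CPM in replicates 1, 2 and 3 with control siRNA (249 ± 57.2, SD, n = 3), at 288, 241 and 366 CPM with HIF1A siRNA (299 ± 63.3), at 148, 167 and 284 CPM with HIF2A siRNA (200 ± 73.5) and at 277, 161 and 304 CPM in the double knockdown (247 ± 76.1). All groups overlapped, and replicate 3 was highest in each of them. Within pairs, CYP1B1 was higher with HIF1A than with control siRNA in 3 of 3 (0.27 ± 0.14 on the log2 scale, pairs from 118 to 124%). It was lower with HIF2A than with control siRNA in 3 of 3 (-0.33 ± 0.14, pairs from 60.7 to 92.2%). The difference between HIF2A and HIF1A siRNA was -0.60 ± 0.14, and it passed an adjusted p of 0.05 in 9 of 18 alternative analyses but not as reported here. The double knockdown lay at -0.02 ± 0.14 from control.

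TIPARP had the lowest levels where HIF2A siRNA was present, with a larger spread in control cells than AHR. It was at 62.1, 34.2 and 52.9 CPM in replicates 1, 2 and 3 with control siRNA (49.7 ± 14.2, SD, n = 3) and at 54.8, 44.2 and 41.3 CPM with HIF1A siRNA (46.8 ± 7.11). It was at 33.3, 32.3 and 36 CPM with HIF2A siRNA (33.9 ± 1.9) and at 34, 23.4 and 30.4 CPM in the double knockdown (29.3 ± 5.38). HIF2A and control siRNA overlapped through control replicate 2, while the double knockdown overlapped neither control nor HIF1A siRNA.

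The fitted difference in TIPARP between HIF2A and control siRNA was -0.51 ± 0.17, with pairs from 53.9 to 94.5%. Between the double knockdown and control siRNA it was -0.75 ± 0.15, with pairs from 55 to 68.8%, and between the double knockdown and HIF1A siRNA -0.69 ± 0.15. HIF1A siRNA alone gave -0.07 ± 0.17 and the interaction was -0.17 ± 0.21. As for AHR, both groups with HIF2A siRNA had the lowest means of TIPARP.

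**Figure D3:**
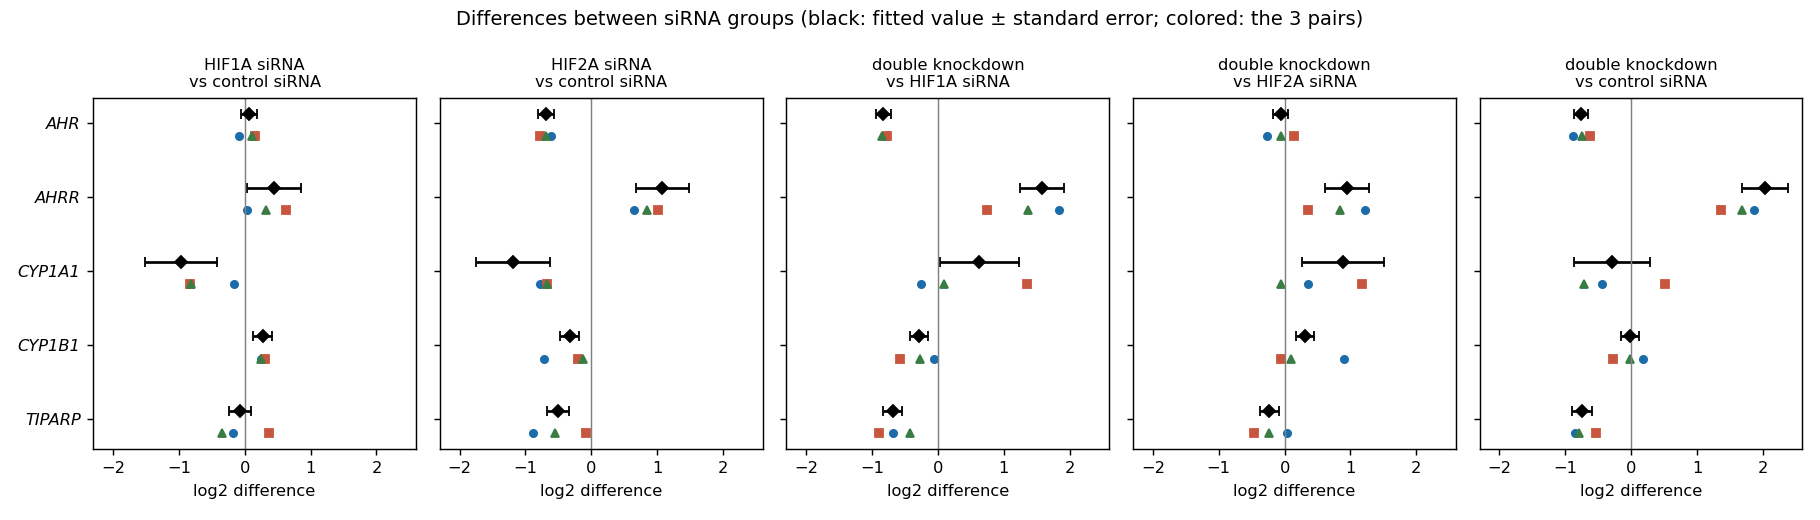
Difference in each gene between siRNA groups (x axis, log2 scale) in 5 comparisons, with the value fitted by edgeR ± its standard error in black and the 3 pairs, after adding 0.5 CPM, as colored points (circle, square and triangle for replicates 1, 2 and 3). AHR lies at -0.69 with HIF2A siRNA and -0.76 in the double knockdown against control siRNA, AHRR lies at 1.08 and 2.03, and the error bars of CYP1A1 are the widest.

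Read against all genes tested, the 5 genes gave the following numbers of calls at an adjusted p under 0.05 (edgeR's quasi-likelihood test, Benjamini-Hochberg adjustment). None of the 5 was called between HIF1A and control siRNA, where 1.17% of 12830 genes were called, nor between HIF2A and control siRNA, where 0.0857% were called, 11 genes in all. The study drew its list, which holds AHR, with DESeq2, a less strict adjusted p and a minimum fold change, so the counts are not alike. AHR passed the threshold used here between HIF2A and control siRNA in 3 of 18 alternative analyses, DESeq2 among them. Between HIF2A and HIF1A siRNA, AHR was called, against 1.5% of all genes. Between the double knockdown and control siRNA, AHR, AHRR and TIPARP were called, against 10.3% of 13000 genes. The same 3 genes were called between the double knockdown and HIF1A siRNA, against 1.4%. None was called between the double knockdown and HIF2A siRNA, against 4%. Since the choice of the genes used these libraries, nothing is read from the member counts.

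No gene of the 5 and no gene of the 13000 was called for the interaction by edgeR (0%), with 318 genes at an unadjusted p under 0.05. DESeq2 called 11 genes for the interaction, and none of the 5 genes was among the calls of any alternative.

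Some calls rest on single libraries or on the pairing. Without the replicate block the calls of AHR between HIF2A and HIF1A siRNA, of AHR and TIPARP between the double knockdown and control siRNA, and of all 3 genes between the double knockdown and HIF1A siRNA were lost. Without replicate 3 in every group none of the 7 calls of these 3 genes remained, while their values moved little. Against control siRNA the double knockdown then lay at -0.76 for AHR, 1.97 for AHRR and -0.72 for TIPARP, and 302 of all genes were called in place of 1336. The call of AHRR in that comparison held in the other 20 of 21 alternative analyses.

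The genes differed in how much of their variation followed the siRNA and how much the replicate number. Of the variance of log2(CPM + 0.5) over the 12 libraries, siRNA group accounted for 80.5% in AHRR, 70% in AHR and 63.9% in TIPARP. It accounted for 29.1% in CYP1B1 and 15.7% in CYP1A1, where the replicate number accounted for 56 and 69.5%. CYP1A1 averaged 1.96 CPM over the 4 libraries of replicate 1, 0.769 CPM in replicate 2 and 0.415 CPM in replicate 3. CYP1B1 averaged 240, 191 and 316 CPM in the same order, so that the P450 genes did not share the order of replicates.

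After centring within replicate numbers, the levels of the 5 genes were compared over the 12 libraries, which share siRNA groups and are not independent. AHR and TIPARP had a Pearson correlation of 0.834, AHR and AHRR of -0.848, and AHRR and TIPARP of -0.79. CYP1B1 correlated at 0.514 with AHR and 0.553 with TIPARP, and CYP1A1 lay between -0.215 and 0.15 with the other 4.

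By the same measure, among 12999 other genes, AHR was most like RAP2C (0.988), a small GTPase of the RAS family, CP (0.977), which encodes the copper-carrying ferroxidase ceruloplasmin, and MACC1 (0.969), known as a driver of MET expression in colon cancer. RAP2C was at 69.5 ± 12.9, 70.3 ± 13.9, 58.6 ± 11.2 and 56.6 ± 8.92 CPM (SD, n = 3) with control, HIF1A, HIF2A and both siRNAs, a difference of -0.24 ± 0.11 between HIF2A and control siRNA where AHR had -0.69. CP was at 69.7 ± 18.1, 69.7 ± 10.1, 43.9 ± 11.2 and 41.2 ± 7.52 CPM (SD, n = 3) in the same order. The measure thus compares the shape of the pattern and not its size. MACC1 was at 44.3 ± 22.2, 46.3 ± 17, 22.6 ± 10.2 and 17.2 ± 7.86 CPM (SD, n = 3) in the same order. AHRR was most like RPA1 (0.968), a subunit of the single-strand DNA binding protein, WBP1L (0.954) and the Notch ligand JAG1 (0.952). JAG1 was at 161 ± 3.56, 175 ± 13.1, 234 ± 34.1 and 324 ± 27 CPM (SD, n = 3), the same order of groups as AHRR at a far higher count. TIPARP was most like OPTN, RAD21L1 and WRB (0.946 to 0.95), CYP1B1 most like WSCD1, ADRBK2 and INPP5A (0.885 to 0.932) and CYP1A1 most like HEXDC, ZNF334 and ZDHHC6 (0.883 to 0.92).

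The rest of the pathway was read from 7 lists of 66 genes, the 5 genes left out. The lists were written from textbook knowledge of AHR biology, but with earlier results of these libraries known. Their shares of called genes and p-values are therefore a description too. Of these, 47 were tested in the fit of the 9 libraries with control or single siRNAs and 49 in the fit of all 12 libraries. The receptor's own machinery was abundant and mostly level. HSP90AB1 and HSP90AA1, the chaperones that hold AHR, were at 2710 ± 237 and 2560 ± 476 CPM (SD, n = 3) with control siRNA and PTGES3 at 538 ± 17.2 CPM, and none of these 3 was called in any comparison. ARNT, the shared partner of AHR and the HIFs, was at 35.7 ± 6.94, 34.4 ± 4.7, 28 ± 6.63 and 25.9 ± 5.3 CPM (SD, n = 3) with control, HIF1A, HIF2A and both siRNAs.

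ARNT fell in the double knockdown against control siRNA, by 0.46 ± 0.12 on the log2 scale (adjusted p = 0.021, edgeR, Benjamini-Hochberg), lower in 3 of 3 pairs. Its relative ARNT2 fell as well (-0.46 ± 0.13, adjusted p = 0.035, edgeR), and so did ARNTL2, a partner in the circadian clock (-0.52 ± 0.11, adjusted p = 0.0073, edgeR). The call of ARNT was lost in 8 of 21 alternative analyses, that of ARNT2 in 10 and that of ARNTL2 in 4, the fit without the replicate block among them each time. With HIF2A siRNA alone ARNT differed from control by -0.35 ± 0.13 (adjusted p = 0.82, edgeR), and with HIF1A siRNA alone by -0.04 ± 0.13. Thus 2 of 6 genes of the receptor complex and its partners were called lower in the double knockdown, where 10.3% of all genes were called. None was called higher, and by sign alone 3 were higher and 3 lower. The list's median difference was -0.03, against 0 over all genes.

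Among the 16 other known AHR targets, 7 had enough counts to be tested, and they did not move as 1 group. ALDH3A1, GSTA1 and IL1B, inducible members of this list, had 0 counts in all 12 libraries, which allows up to 3 counts per library. NQO1, a quinone reductase of the AHR battery that NRF2 also drives, was at 225 ± 33.4 CPM with control siRNA and 183 ± 13.2 CPM (SD, n = 3) in the double knockdown (-0.29 ± 0.10, adjusted p = 0.075, edgeR). STC2, a secreted glycoprotein hormone, was at 436 ± 24.7, 270 ± 44.7, 374 ± 30.3 and 201 ± 29.1 CPM (SD, n = 3) with control, HIF1A, HIF2A and both siRNAs. It fell with HIF1A siRNA (-0.70 ± 0.12, adjusted p = 0.0085, edgeR) and in the double knockdown against control (-1.13 ± 0.11, adjusted p = 7.4e-06, edgeR). The first of these calls was lost in 5 of 18 alternative analyses, among them those without the replicate block and without replicate 3, and the second in none of 21.

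SLC7A5, the large neutral amino acid transporter that carries tryptophan and kynurenine, was at 675 ± 69.9, 798 ± 123, 456 ± 79.6 and 536 ± 83.2 CPM (SD, n = 3) in the same order. It was lower with HIF2A than with HIF1A siRNA (-0.81 ± 0.12, adjusted p = 0.0039, edgeR) and in the double knockdown than with HIF1A siRNA (-0.58 ± 0.11, adjusted p = 0.019, edgeR), and these calls were lost in 3 of 18 and 8 of 21 alternative analyses, the fit without the replicate block among them. HES1, a repressor downstream of Notch, rose in the double knockdown against control (1.30 ± 0.36, adjusted p = 0.034, edgeR), with 1 library at 28.3 CPM and the other 2 at 11.3 and 6.57 CPM, and the call was lost in 8 of 21 alternative analyses, double knockdown replicates 1 and 2 left out in turn among them. Over the 7 tested targets the median difference in the double knockdown was -0.29, with 1 gene called higher and 1 lower (28.6%, against 10.3% of all genes).

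A list of 12 enzymes covered the breakdown of tryptophan to kynurenine and beyond, a source of AHR ligands in the body. Of these, IDO1 and TDO2, the enzymes of the first step, had 0 counts in every library. KMO, which hydroxylates kynurenine, was at 3.72 ± 0.736, 5.21 ± 2.1, 1.66 ± 1.22 and 1.71 ± 0.688 CPM (SD, n = 3) with control, HIF1A, HIF2A and both siRNAs. It was lower with HIF2A than with HIF1A siRNA (-1.74 ± 0.36, adjusted p = 0.029, edgeR), a call that was lost in 9 of 18 alternative analyses. IL4I1, an amino acid oxidase whose tryptophan products activate AHR, had the most counts of the list, and no comparison called it.

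Of the 8 partners and follow-on enzymes of the P450s, 3 were called higher in the double knockdown against control siRNA and none lower (37.5%, against 10.3% of all genes). By sign alone 6 were higher and 2 lower. EPHX1, the microsomal epoxide hydrolase that opens P450 products, rose by 0.76 ± 0.14 (adjusted p = 0.0029, edgeR), CYB5R3, a cytochrome b5 reductase, by 0.46 ± 0.12 (adjusted p = 0.023, edgeR), and GSTP1, a glutathione transferase, by 0.36 ± 0.11 (adjusted p = 0.049, edgeR). The median of the list was 0.11 against 0 over all genes. The call of GSTP1 was lost in 13 of 21 alternative analyses, that of CYB5R3 in 8 and that of EPHX1 in 3 (no replicate block, without replicate 1 and without replicate 3). POR, the reductase that feeds electrons to the P450s, was at 57.8 ± 7.05 CPM with control siRNA and 48 ± 4.64 CPM (SD, n = 3) in the double knockdown and was not called. No relative of TIPARP (of 6 tested, among them PARP10, ZC3HAV1 and PARP14) and no AHRR corepressor (of 3 tested, HDAC4, HDAC5 and ANKRA2) was called in any comparison.

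Over all 7 lists, with the siRNA targets HIF1A and EPAS1 left out, STC2 was the 1 gene of 45 called between HIF1A and control siRNA (2.22%, against 1.17% of all genes). Between HIF2A and control siRNA edgeR called 0 of 45 (against 0.0857% of all genes). At an unadjusted p under 0.05 (edgeR) there were 6 of these 45, beside 690 of 12830 genes. DESeq2 called 2 genes of the lists with EPAS1 counted, beside 58 of all genes. In the double knockdown against control siRNA, 4 were called higher and 4 lower of 47 (17%, against 10.3% of all genes). By sign alone 22 were higher and 25 lower.

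**Figure D4:**
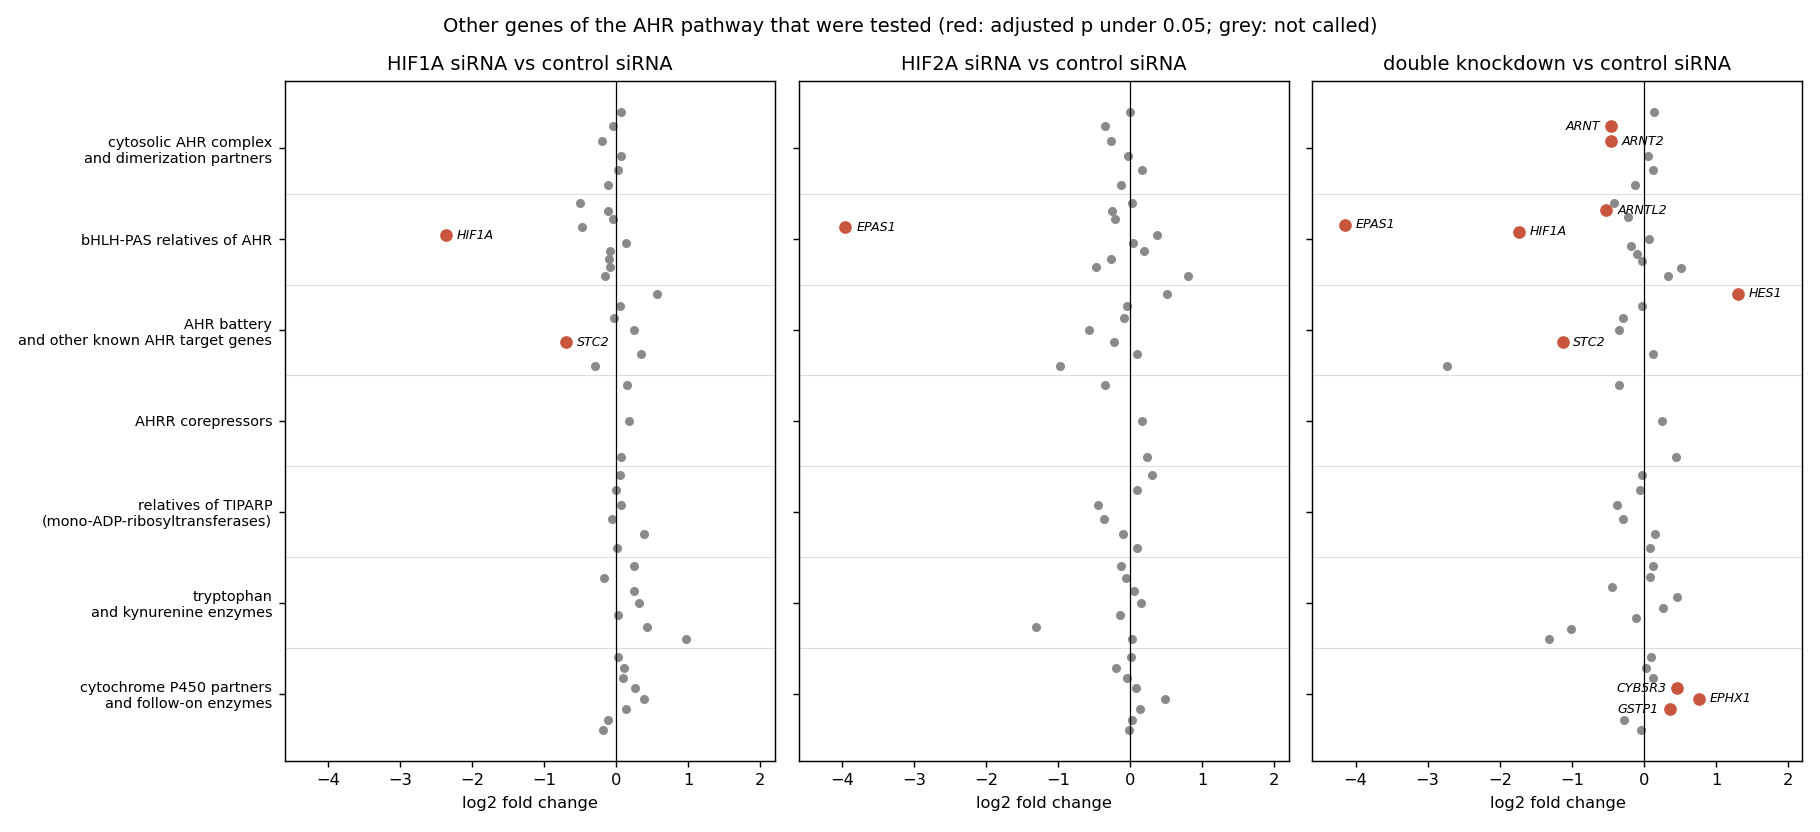
Difference of each tested gene of the 7 pathway lists (rows) against control siRNA (x axis, log2 fold change fitted by edgeR) with HIF1A siRNA, HIF2A siRNA and both, in red where the adjusted p was under 0.05 and grey otherwise. Apart from HIF1A and EPAS1 themselves, STC2 is red with HIF1A siRNA and 8 genes are red in the double knockdown.

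In the GENCODE v44 annotation (GRCh38) the genes lie apart, AHR at chr7:16916359-17346152 (+), AHRR at chr5:321714-438291 (+), CYP1A1 at chr15:74719542-74725536 (-), CYP1B1 at chr2:38066973-38109902 (-) and TIPARP at chr3:156673235-156706770 (+). The counts themselves were made on hg19, and no coordinate was converted. Of 15 neighbouring genes listed, 11 were tested, and CSK, near CYP1A1, was the 1 called in any comparison (0.51 ± 0.14 in the double knockdown against control siRNA, adjusted p = 0.027, edgeR), a share of 9.09% of the neighbours against 10.3% of all genes. PDCD6, upstream of AHRR, was at 105 ± 31.5, 97.3 ± 20.2, 100 ± 18.5 and 98.2 ± 27.5 CPM (SD, n = 3) with control, HIF1A, HIF2A and both siRNAs, with -0.09 ± 0.13 in the double knockdown against control. In the same annotation the PDCD6-AHRR readthrough shares 58.7% of AHRR exon bases on the same strand, and CYP1B1-AS1 shares 11.3% of CYP1B1 exon bases on the opposite strand. A protein-coding gene without a symbol shares 29.5% of AHR exon bases. None of these is a symbol in the count files, and whether the counting used strand is not given in the sources used here, so that reads of overlapping genes cannot be told apart.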

How the data were processed

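RNA of 12 RCC4 libraries was sequenced after poly(A) selection with a directional kit. The authors trimmed the reads, aligned them to hg19 (GRCh37), removed fragments that did not map to 1 place, counted fragments per gene symbol and deposited these counts as they were, with no scaling. The submitters' processing notes name Trim Galore 0.3.3, HISAT2 2.05, Picard 2.0.1 and HTSeq 0.5.4p3. The strand setting of the counting is not given in the sources used here. Groups and replicate numbers came from the sample labels.

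The members and the gene lists were chosen with earlier results of these data known. Counts were fitted with edgeR 4.0.16 in R 4.3.3 (quasi-likelihood test, TMM, filterByExpr, which asks for at least about 10 counts in as many libraries as a group holds and 15 in total), and the replicate number entered each fit as a block, because the study paired conditions by biological replicate. Control, HIF1A and HIF2A siRNA (9 libraries, 12830 genes) were fitted together, and all comparisons with the double knockdown in a fit of 12 libraries (13000 genes). Genes were called at a Benjamini-Hochberg adjusted p under 0.05 over all genes tested. Standard errors are the log2 fold change divided by the square root of F. CPM used TMM factors (0.98 to 1.02), and ratios within pairs added 0.5 CPM. Deviations from the group means correlated across genes between 0.0991 and 0.813 (median 0.518) in 18 pairs of libraries with the same number. In 36 pairs with different numbers the range was -0.724 to 0.527 (median -0.364), so the ranges overlapped. Replicate 3 was clearest, at 0.724 to 0.813. Control siRNA replicate 1 had 0.0991 with HIF2A siRNA replicate 1, which control siRNA replicate 2 exceeded at 0.527. Pairing of replicates 1 and 2 was less clear. Replicates differed by more than sampling noise, and none was merged. The scripts were tested on simulated data that held no replicate effect, so the use of the block was not checked there.

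Named were the members, ARNT, HIF1A and EPAS1, every listed pathway gene that was called, up to 3 genes with the highest mean CPM per list, genes next to a member, and the 3 genes whose log2(CPM + 0.5), centred within replicate numbers, correlated best with each member of at least 1 CPM on average. CYP1A2, PTPRC and other genes at or near 0 counts, and NQO1 and POR among the rest, were named after their values were seen. Alternatives were DESeq2 size factors, a fit without the replicate block, no filter or a minimum of 10 counts per library, DESeq2 1.42.0, other sets of libraries in the fit, and each replicate number or library left out. Promoter windows came from the RefSeq table and were searched on both strands. The single-cell data were not analysed here.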

Additional observations from a re-analysis of the deposited data

How the results depend on the processing

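No called log2 fold change of the 5 genes turned its direction. Of 678 values under alternatives, called or not, 650 moved by less than the spread between pairs and 28 by more. Some differences that were not called did change sign. TIPARP between HIF1A and control siRNA ran from -0.27 to 0.08, and CYP1A1 between the double knockdown and control siRNA from -1.01 to 0.14. The 7 called differences of the 5 genes kept their sign in every alternative and were still called in 110 of 144. Since these libraries were in view when the genes were chosen, nothing is read from that tally. The pathway counts of this section include the siRNA targets HIF1A and EPAS1. With them the paired fits called 2, 1, 4, 10, 2 and 2 pathway genes, in the order of comparisons given next. HIF1A kept its call between HIF1A and control siRNA in all 18 alternatives, and EPAS1 its call between HIF2A and control siRNA in all 18. Without the replicate block, the paired fit's 150, 11, 193, 1336, 182 and 520 called genes (HIF1A against control siRNA, HIF2A against control siRNA, HIF2A against HIF1A siRNA, and the double knockdown against control, HIF1A and HIF2A siRNA) became 41, 1, 52, 195, 8 and 90, and the pathway genes called became 1 for HIF1A against control siRNA, 2 for HIF2A against HIF1A siRNA, 3 for the double knockdown against control and 1 against HIF1A siRNA. With DESeq2 the counts of genes were 236 and 58 against control siRNA for HIF1A and HIF2A siRNA, 329 for HIF2A against HIF1A siRNA, 403 and 818 for the double knockdown against HIF1A and HIF2A siRNA and 11 for the interaction, with 2 pathway genes for HIF2A against control siRNA and 5 for the double knockdown against HIF1A siRNA. Without a filter they were 41 for HIF2A against control siRNA, 291 for HIF2A against HIF1A siRNA and 4 for the interaction, with 2 and 4 pathway genes in the same comparisons as for DESeq2. All 12 libraries in the fit gave 26 genes for HIF2A against control siRNA. The 6 compared libraries alone gave 2609, 656 and 164 genes for the double knockdown against control, HIF1A and HIF2A siRNA, with 8 pathway genes against HIF1A siRNA.

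Leaving out a replicate number or a library gave 66 to 219 genes (1 to 3 pathway genes) for HIF1A against control siRNA, 1 (without control siRNA replicate 3) to 33 (1 to 2) for HIF2A against control siRNA, 90 to 351 (2 to 6) for HIF2A against HIF1A siRNA, 302 (without replicate 3) to 2307 (3 to 12) for the double knockdown against control, 26 to 442 (1 to 6) against HIF1A siRNA, 158 to 672 (2 to 3) against HIF2A siRNA and 0 to 3 (0) for the interaction. AHR passed the threshold between HIF2A and control siRNA in 3 of 18 alternatives (no filter, DESeq2 and all 12 libraries). The calls of AHRR and TIPARP between the double knockdown and HIF1A siRNA held in 12 and 9 of 21. At least 10 counts in every library removed CYP1A1, which gave no value. Other sets of libraries were not run for the interaction, which needs all 4 groups. The cause of these changes was not tested. Counts under 50 in most libraries limit what can be said of AHRR and CYP1A1.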

Other observations

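Among the 15 relatives of AHR in the bHLH-PAS family, 11 had enough counts to be tested over the 12 libraries. HIF3A, the third HIF alpha subunit, was at most 0.191 CPM in any library. EPAS1 was at 157 ± 16.9 CPM with control siRNA and 114 ± 17.7 CPM (SD, n = 3) with HIF1A siRNA, lower in 3 of 3 pairs and with no overlap of the groups (-0.47 ± 0.15, adjusted p = 0.28, edgeR), where 1.17% of all genes were called. HIF1A was at 96.7 ± 33.6 CPM with control siRNA and 121 ± 13.3 CPM (SD, n = 3) with HIF2A siRNA (0.37 ± 0.20, adjusted p = 0.93, edgeR). In the double knockdown HIF1A was at 28.7 ± 4.09 CPM against 18.3 ± 3.62 CPM (SD, n = 3) with HIF1A siRNA alone, higher in 3 of 3 pairs (0.66 ± 0.21, adjusted p = 0.18, edgeR). HIF1A lay between 24.2 and 32.2 CPM in the double knockdown and between 15 and 22.2 CPM with HIF1A siRNA alone, with no overlap. The difference did not pass the threshold over all genes tested, and equal knockdown in both groups was not shown.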
